A study of Mus musculus with 12 samples.

Results

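The miR-30 family was measured by 5 of the 375 miRNA assays of a TaqMan low-density array (TLDA), one assay each for mmu-miR-30a, mmu-miR-30b, mmu-miR-30c, mmu-miR-30d and mmu-miR-30e, chosen by name. The arrays were run on total RNA from cultured pulmonary endothelial cells of male C57BL/6N wild type mice aged 6 to 10 weeks, with 3 mice pooled per isolation and cells enriched by magnetic beads against CD144 and CD31. All cultures were starved for 2 hours in 2% serum, and then 4 were left unstimulated (control arrays 4, 7, 10 and 13 in the numbering of the labels), 4 received the NOD1 ligand Tri-DAP, called TD in the labels (arrays 5, 8, 11 and 14), and 4 received the NOD2 ligand MDP (arrays 6, 9, 12 and 15). Both ligands were given at 10 μg/mL for 6 hours. The paper speaks of 4 separate isolations behind the arrays and its methods of 4 per condition, so that an isolation may have given an array to each condition, but neither they nor the labels say which arrays would belong together. The arrays were therefore compared unpaired, with consecutive label numbers taken as sets in an alternative fit, and p-values measure the spread between these 12 arrays.

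NOD1 and NOD2 are cytosolic receptors that sense fragments of bacterial peptidoglycan. The miR-30 family is a group of miRNAs expressed in many tissues, endothelium included, whose members share the seed, the stretch near the 5′ end by which a miRNA pairs with its target mRNAs. In endothelial cells the family is known for repressing the Notch ligand DLL4, which restrains vessel sprouting, and angiopoietin-2, a vessel-destabilizing factor. The comparisons addressed whether any member changed with either ligand and whether the members varied together.

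The mature sequences are shown here because these members share the seed and differ only behind it, so that separate assays report on miRNAs with the same seed. They come from RefSeq (GRCm38.p6), which matched 3 of the 5 members in the table used, and the seed (bases 2 to 8) is in capitals. The last sequence belongs to a miRNA of another name that carries the same seed and has an assay on the array.
mmu-miR-30a-5p: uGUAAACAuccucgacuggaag
mmu-miR-30c-5p: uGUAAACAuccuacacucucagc
mmu-miR-30e-5p: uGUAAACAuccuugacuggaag
mmu-miR-384-5p: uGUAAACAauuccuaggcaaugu

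Of 1679 distinct mature mouse miRNAs in that table, these 4 carried the seed GUAAACA. The table held no mature sequence for mmu-miR-30b or mmu-miR-30d, so this count leaves them out. mmu-miR-30a-5p and mmu-miR-30e-5p were identical at 21 of 22 positions, with the single substitution C13U, counted from 1 at the 5′ end with the base of mmu-miR-30a-5p first. mmu-miR-30c-5p matched each of these 2 at 17 of 22 positions, with all differences from position 13 onward. Assays for mmu-miR-30a and mmu-miR-30e therefore had to tell 2 targets apart by 1 base, and any cross-reading between them was not measured.

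The genes of the members lie in 3 neighbouring pairs. The positions given here are those of the mature miRNA that each gene encodes, not of the whole gene. Mir30a (chr1:23272274-23272295, plus strand) neighbours Mir30c-2 (chr1:23291714-23291736, plus strand). Mir30c-1 (chr4:120769584-120769606, minus strand) neighbours Mir30e (chr4:120772660-120772681, minus strand), and both lie inside the protein-coding gene Nfyc, which encodes a subunit of the transcription factor NF-Y. Mir30e also lies inside a further miRNA gene, Mir30f, which is not among the members. Mir30b and Mir30d are neighbours on chromosome 15. The mmu-miR-30c assay reads the product of 2 genes, Mir30c-1 on chromosome 4 and Mir30c-2 on chromosome 1, because their mature sequences are the same. Mir384 (chrX:105344332-105344354, minus strand) stands apart from these genes.

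The arrays reported a threshold cycle (Ct), the PCR cycle at which fluorescence crossed a threshold. A lower Ct means more RNA, 1 cycle corresponds to a 2-fold difference at full amplification efficiency, and a Ct of 40 means that no product appeared within the 40 cycles. Between 231 and 254 miRNAs were measured per array, and 174 were measured on all 12. The plant control miR-159a was undetermined on all 12 arrays. The endothelial miRNA mmu-miR-126-3p had the lowest Ct of all miRNAs, between 18.6 and 20.6. Of the markers of other cells, mmu-miR-205 (epithelium) was undetermined on all control and MDP arrays, and mmu-miR-142-5p (leukocytes) on all control and Tri-DAP arrays. Others were present: of 8 epithelial markers, 4 were measured on every control array, 5 on every Tri-DAP array and 4 on every MDP array. In each group, 2 of 5 leukocyte markers and all 5 mural cell and fibroblast markers were measured on every array. The summed level of the 8 epithelial markers relative to U6 ranged from -11.57 to -5.71 (log2) on control, -9.55 to -7.31 on Tri-DAP and -9.72 to -6.70 on MDP arrays. That of the 5 leukocyte markers ranged from -9.89 to -8.99, -11.43 to -8.34 and -9.70 to -9.38, and that of 5 mural cell and fibroblast markers from -7.35 to -2.31, -6.39 to -3.59 and -7.61 to -2.36. For scale, that of the 2 endothelial markers ranged from -0.57 to 1.33 on control, -1.80 to 1.81 on Tri-DAP and -0.55 to 1.24 on MDP arrays. These ranges overlapped between all groups. After MDP, the mean log2 change relative to U6 was 1.83 ± 0.85 (SE) for mmu-miR-142-3p (leukocytes) and 1.76 ± 1.02 for mmu-miR-200a (epithelium). It was -0.91 ± 0.68 for mmu-miR-203, -0.90 ± 1.33 for mmu-miR-200b and -0.35 ± 0.70 for mmu-miR-150. After Tri-DAP it was 1.25 ± 0.85 for mmu-miR-142-3p and -1.38 ± 1.22 for mmu-miR-200b. None of these had a limma p before adjustment under 0.05 (smallest 0.0579). The part of other cells in the values below was not tested. In such bulk samples, fewer cells of a type and less RNA per cell cannot be told apart.

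All 5 members were measured on all 12 arrays. mmu-miR-30c had the lowest mean Ct, 25.7 ± 0.65 (SD, n = 12), followed by mmu-miR-30b at 26.1 ± 0.57, mmu-miR-30e at 26.4 ± 0.48, mmu-miR-30a at 27.9 ± 0.45 and mmu-miR-30d at 28.5 ± 0.53. The median over the 174 miRNAs measured on all arrays was 29.0. Thus every member lay on the abundant side of that median, with 17.2% of these miRNAs earlier than mmu-miR-30c and 46.0% earlier than mmu-miR-30d. Ct values of different assays also depend on their amplification efficiencies, which were not measured, so the order is an order of Ct.

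The order was examined by differences within each array, in which any reference cancels. mmu-miR-30c was above mmu-miR-30b on 12 of 12 arrays, by 0.41 ± 0.24 log2 (SD), with a smallest difference of 0.002. mmu-miR-30b was above mmu-miR-30e on 9 of 12 arrays, by 0.26 ± 0.54, a difference smaller than its spread. mmu-miR-30c was above mmu-miR-30e on 10 of 12, by 0.67 ± 0.55. These 3 members were therefore close to each other. A gap followed: mmu-miR-30e was above mmu-miR-30a on 12 of 12 arrays, by 1.51 ± 0.33, although the mature miRNAs differ by 1 base. mmu-miR-30a was above mmu-miR-30d on 12 of 12 arrays, by 0.65 ± 0.35, with a range from 0.28 to 1.34.

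No member passed the test for a change with either ligand. The authors' scale is Ct relative to U6, a small nuclear RNA read in 4 wells per array. Here it is turned in sign, so that a higher value means more miRNA, and it is called the log2 level relative to U6. Relative to U6, mmu-miR-30a was at -7.81, -7.58, -8.92 and -8.47 on control arrays 4, 7, 10 and 13. It was at -7.79, -7.28, -9.37 and -9.06 on Tri-DAP arrays 5, 8, 11 and 14, and at -7.23, -8.45, -9.09 and -8.09 on MDP arrays 6, 9, 12 and 15. The 3 groups overlapped widely, and each held both high and low arrays.

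mmu-miR-30b, whose gene neighbours that of mmu-miR-30d, was at -6.64, -6.62, -6.10 and -6.63 on the control arrays in the same order. It was at -6.55, -5.33, -6.74 and -7.71 on the Tri-DAP arrays and at -5.95, -6.80, -6.52 and -6.40 on the MDP arrays. The Tri-DAP group held both the highest and the lowest of the 12 values, on arrays 8 and 14. The same arrays were the extremes for mmu-miR-30c, which was at -6.45, -5.85, -5.95 and -6.06 on control, -6.24, -5.05, -6.05 and -7.34 on Tri-DAP, and -5.95, -6.32, -5.87 and -5.90 on MDP arrays.

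mmu-miR-30d, the member with the latest Ct, was at -8.65, -8.18, -9.20 and -8.77 on the control arrays. It was at -8.10, -7.80, -9.74 and -10.40 on the Tri-DAP and at -7.61, -9.48, -10.08 and -8.95 on the MDP arrays. The control values lay inside the range of both stimulated groups. mmu-miR-30e was at -6.68, -5.71, -7.40 and -6.86 on control, -6.45, -5.63, -7.15 and -8.04 on Tri-DAP, and -5.84, -7.17, -7.43 and -6.70 on MDP arrays. Its highest and lowest values again fell on Tri-DAP arrays 8 and 14.

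**Figure D1:**
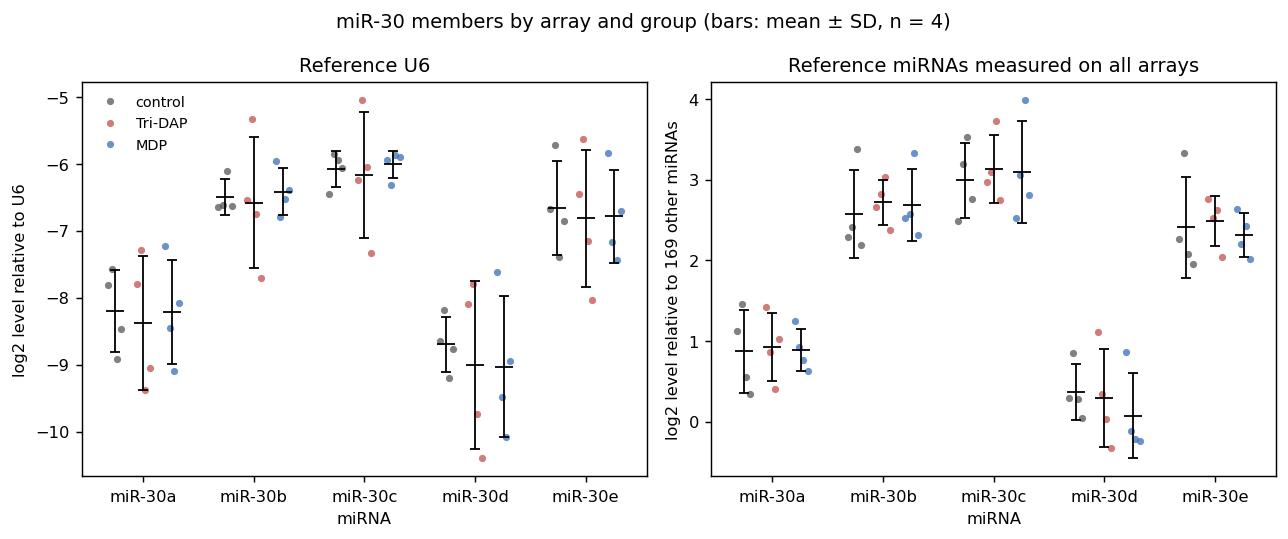
Levels of the 5 miR-30 members on each array (points, in order of label number within a group) with the group mean ± SD (bars, n = 4), as log2 relative to U6 on the left and as log2 relative to the mean of 169 other miRNAs on the right. The groups overlap for every member on both scales, and relative to U6 the Tri-DAP values of mmu-miR-30b spread from -7.71 to -5.33, wider than those of the other groups.

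Arrays 8 and 14 were also where U6 itself was extreme. U6 had a mean Ct of 21.6 on Tri-DAP array 8, the latest of the 12, and of 18.3 on Tri-DAP array 14, the earliest. The raw Ct of mmu-miR-30c on these arrays was 26.7 and 25.6, a difference of about 1 cycle, and that of mmu-miR-30a was 28.9 and 27.3. The SD of U6 over its 4 wells ran from 0.11 to 2.05 cycles between arrays. U6 averaged 19.6 ± 0.36 on control, 19.5 ± 1.51 on Tri-DAP and 19.7 ± 0.67 on MDP arrays. None of 5 reference RNAs (U6, snoRNA135, snoRNA202, U87 and Y1) passed the test in any of the 3 comparisons (two-sided exact permutation test, smallest p = 0.286, all adjusted p = 1 over 15 tests).

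**Figure D2:**
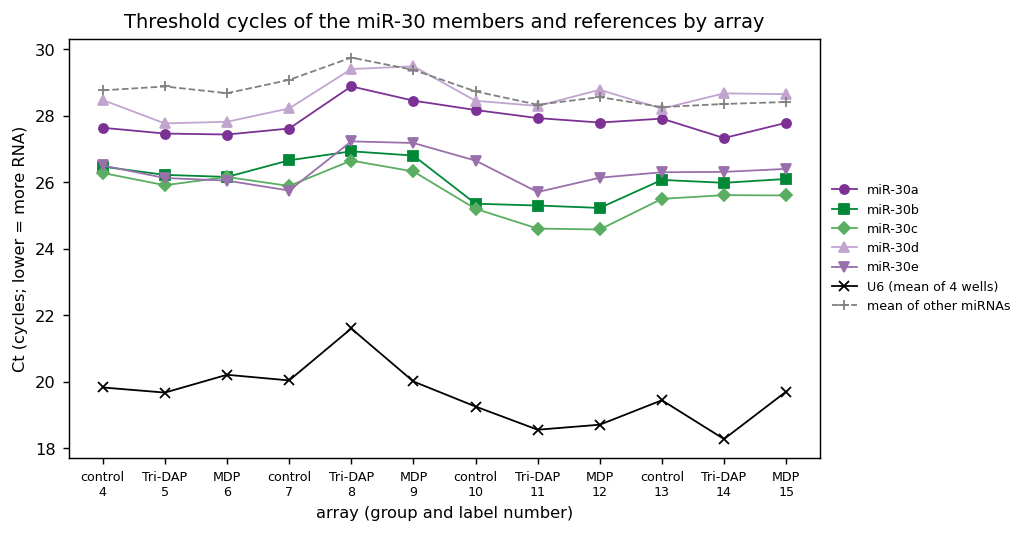
Raw Ct (cycles, lower means more RNA) of the 5 members, of U6 (mean of 4 wells) and of the mean of 169 other miRNAs on each of the 12 arrays in order of label number. U6 moves between 18.3 and 21.6, more than any member, and mmu-miR-30b and mmu-miR-30c have their lowest Ct values on arrays 10, 11 and 12.

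After Tri-DAP, the mean log2 changes relative to U6 were -0.18 for mmu-miR-30a, -0.08 for mmu-miR-30b, -0.09 for mmu-miR-30c, -0.31 for mmu-miR-30d and -0.16 for mmu-miR-30e, with standard errors from 0.55 to 0.72. limma gave an adjusted p of 0.998 for all 5 members, and the exact permutation test gave p values from 0.657 to 0.857. The 95% interval for mmu-miR-30d reached from -1.86 to 1.24 and that for mmu-miR-30c from -1.28 to 1.09, so a 2-fold change of either could not be told from none on this scale. The median over all 237 miRNAs tested was -0.24, and that of the 5 members was -0.16. None of the members was called at an unadjusted limma p under 0.05, against a background of 1.69% of the miRNAs tested. None changed by more than 2-fold in the mean, where 19.8% of the miRNAs tested did, and none had groups that did not overlap, as did 0% of the 181 miRNAs with a value on each array of both groups.

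After MDP, the mean log2 changes relative to U6 were -0.02 for mmu-miR-30a, 0.08 for mmu-miR-30b, 0.07 for mmu-miR-30c, -0.33 for mmu-miR-30d and -0.12 for mmu-miR-30e, with standard errors from 0.54 to 0.72. limma gave an adjusted p of 1 for all 5, and the exact permutation p values ran from 0.571 to 0.971. The largest of these changes, that of mmu-miR-30d, had a 95% interval from -1.88 to 1.22. The median over all 244 miRNAs tested was -0.02, and that of the members was also -0.02. No member was called, against 1.23% of the miRNAs tested, and no member passed 2-fold, against 16.4%. The groups overlapped for all members, and 0% of the 181 miRNAs measured on every array of both groups were without overlap.

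Between the ligands, which were used at the same dose and time and bind different receptors, MDP minus Tri-DAP was 0.16 for mmu-miR-30a, 0.17 for mmu-miR-30b, 0.16 for mmu-miR-30c, -0.02 for mmu-miR-30d and 0.03 for mmu-miR-30e. The adjusted limma p was 0.998 for each, and the exact permutation p values were between 0.657 and 1. The median over the 241 miRNAs tested was 0.18, close to the first 3 of these values. No member was called, against 2.90% of the miRNAs tested, and none passed 2-fold, against 18.3%. Of 181 miRNAs with a value on each of these 8 arrays, 0% had groups that did not overlap. Over the whole array, 0 miRNAs passed an adjusted limma p of 0.05 in each of the 3 comparisons, and 4, 3 and 7 had an unadjusted p under 0.05.

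A second reference, the mean of the 169 other miRNAs measured on all arrays, moved less between arrays (mean Ct from 28.3 to 29.8) and gave narrower intervals. It brought the median of all miRNAs after Tri-DAP from -0.24 to 0.01. That follows from its making, since a mean over these same miRNAs takes out any change or variation that they share. The changes of mmu-miR-30a, mmu-miR-30b, mmu-miR-30c and mmu-miR-30e after Tri-DAP were then above 0 instead of below. They were 0.05 for mmu-miR-30a (95% interval -0.70 to 0.80), 0.15 for mmu-miR-30b (-0.63 to 0.93), 0.14 for mmu-miR-30c (-0.722 to 1.005) and 0.08 for mmu-miR-30e (-0.69 to 0.85). mmu-miR-30d was at -0.08 (-0.93 to 0.78). On this scale, changes beyond 2-fold in either direction lay outside the Tri-DAP intervals of mmu-miR-30a, mmu-miR-30b, mmu-miR-30d and mmu-miR-30e, and at the upper edge of that of mmu-miR-30c.

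After MDP on the second scale, mmu-miR-30a changed by 0.02 (-0.74 to 0.77), mmu-miR-30b by 0.12 (-0.67 to 0.90), mmu-miR-30c by 0.10 (-0.77 to 0.97) and mmu-miR-30e by -0.09 (-0.87 to 0.69). None of these intervals reached 2-fold. For mmu-miR-30d the change was -0.30 (-1.16 to 0.56, exact permutation p = 0.4, limma adjusted p = 0.997), so a fall of 2-fold was inside its interval. Its values were 0.29, 0.86, 0.28 and 0.05 on the control arrays, 1.11, 0.35, 0.04 and -0.32 on the Tri-DAP arrays, and 0.86, -0.11, -0.22 and -0.24 on the MDP arrays. MDP arrays 9, 12 and 15 lay below all 4 control arrays and MDP array 6 was level with the highest of them, control array 7. Between MDP and Tri-DAP, the changes on this scale ran from -0.22 for mmu-miR-30d to -0.03 for mmu-miR-30b, all below 0 where all but that of mmu-miR-30d were above 0 relative to U6, with exact permutation p values from 0.429 to 0.914.

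**Figure D3:**
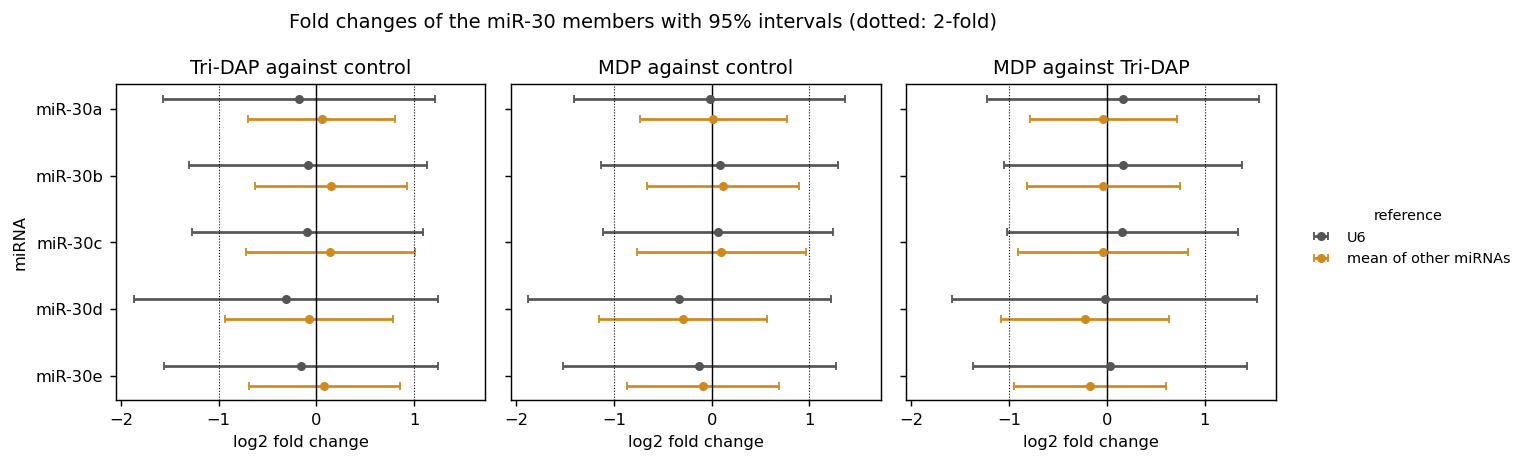
Mean log2 fold changes of the 5 members (points) with 95% intervals (lines) from limma in the 3 comparisons, relative to U6 (grey) and relative to the mean of 169 other miRNAs (orange). Every interval includes 0, and the intervals relative to the other miRNAs are narrower, for example -0.70 to 0.80 against -1.57 to 1.21 for mmu-miR-30a after Tri-DAP. Dotted lines mark 2-fold.

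The spread between arrays was smaller for the members than for the median miRNA. The pooled SD within groups relative to U6 was 0.58 for mmu-miR-30c and 0.62 for mmu-miR-30b, where the median of the 174 miRNAs measured on all arrays was 1.003. Only 5.75% and 8.05% of these miRNAs had a smaller SD. The corresponding SD was 0.81 for mmu-miR-30a, 0.82 for mmu-miR-30e and 0.98 for mmu-miR-30d, and 26.4%, 28.7% and 45.4% of these miRNAs had a smaller one. All members also had an earlier mean Ct than the median miRNA, and the spread was not compared at like Ct. Relative to the other miRNAs the SDs lay between 0.41 for mmu-miR-30a and 0.51 for mmu-miR-30c, below the median of 0.69.

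The balance between members did not pass a test of change either. For each of the 10 pairs of members, the within-array difference was compared between groups by an exact permutation test, whose smallest possible two-sided p with 4 arrays against 4 is 0.0286. No pair passed in any comparison, and the smallest p was 0.571 for Tri-DAP, 0.171 for MDP and 0.486 between the ligands (all adjusted p = 1 over 10 pairs). The smallest p belonged to mmu-miR-30a against mmu-miR-30d after MDP. Their difference was 0.50 ± 0.27 (SD, n = 4) on control and 0.82 ± 0.30 on MDP arrays, a change of 0.31 with a 95% interval from -0.18 to 0.80. The largest change was that of mmu-miR-30b against mmu-miR-30d after MDP, 0.41 with an interval from -0.82 to 1.65. For Tri-DAP the changes stayed within 0.23.

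Over the 12 arrays, mmu-miR-30b and mmu-miR-30c varied together, and the other 3 members had high r with each other but not with these 2. Levels relative to the other miRNAs were used here, because a shared U6 value would itself correlate the members, and relative to U6 the r of the 10 pairs ran from 0.43 to 0.93. mmu-miR-30b and mmu-miR-30c correlated with r = 0.86 (permutation p = 0.0011, adjusted p = 0.011 over 10 pairs) and a Spearman rho of 0.80 (permutation p = 0.00336, adjusted p = 0.0336). Among 14196 pairs of the other miRNAs the median r was 0.01, and 1.15% exceeded the r of mmu-miR-30b and mmu-miR-30c. Without the 2 arrays farthest from the median of mmu-miR-30b, control array 10 and MDP array 12, r was 0.77 and no longer passed (adjusted p = 0.127). Leaving out the extreme arrays narrows the range and leaves fewer arrays, which by itself can lower r and raise p. Whether it did so here was not tested. Without arrays 10, 11 and 12, r was 0.51 and did not pass either (adjusted permutation p = 0.355).

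mmu-miR-30d and mmu-miR-30e had r = 0.72 (rho 0.71), mmu-miR-30a and mmu-miR-30d r = 0.68 (rho 0.54), and mmu-miR-30a and mmu-miR-30e r = 0.64 (rho 0.65). Their permutation p values for r were 0.0118, 0.0173 and 0.024, and the adjusted values were 0.0578, 0.0578 and 0.0601. The adjusted values for rho were 0.0566, 0.19 and 0.0814. Of the 14196 pairs of other miRNAs, 7.45% exceeded the r of mmu-miR-30a and mmu-miR-30e. Without the 2 farthest arrays these 3 pairs had r of 0.73, 0.64 and 0.35. As deviations from the group means, mmu-miR-30d with mmu-miR-30e (r = 0.72) and mmu-miR-30a with mmu-miR-30d (r = 0.71) passed, each with an adjusted permutation p of 0.0421. As deviations from the means of consecutive label numbers, a setting added after seeing the data, the r of the 3 pairs was 0.67, 0.28 and 0.58, and none passed. The other 6 pairs, each with one of mmu-miR-30b and mmu-miR-30c on one side, had r between -0.37 and 0.20, rho between -0.33 and 0.38, and adjusted p values for r from 0.471 to 0.839.

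On this scale over all 12 arrays, genes that neighbour each other did not give the pairs with the highest r. The chromosome 15 neighbours mmu-miR-30b and mmu-miR-30d had r = -0.07, mmu-miR-30a and mmu-miR-30c had r = -0.37, and mmu-miR-30c and mmu-miR-30e had r = 0.20. The genes Mir30b and those of mmu-miR-30c, the pair with the highest r there, lie on different chromosomes. This order depended on the setting: as deviations from the means of consecutive label numbers, r was 0.25 for mmu-miR-30b and mmu-miR-30c and 0.50 for mmu-miR-30c and mmu-miR-30e, and relative to U6 or without arrays 10, 11 and 12 the highest r was that of mmu-miR-30d and mmu-miR-30e (0.93 and 0.84). With 4 isolations behind 12 arrays, arrays of different groups may share an isolation, in which case the 12 arrays are not independent and these p values are too small.

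**Figure D4:**
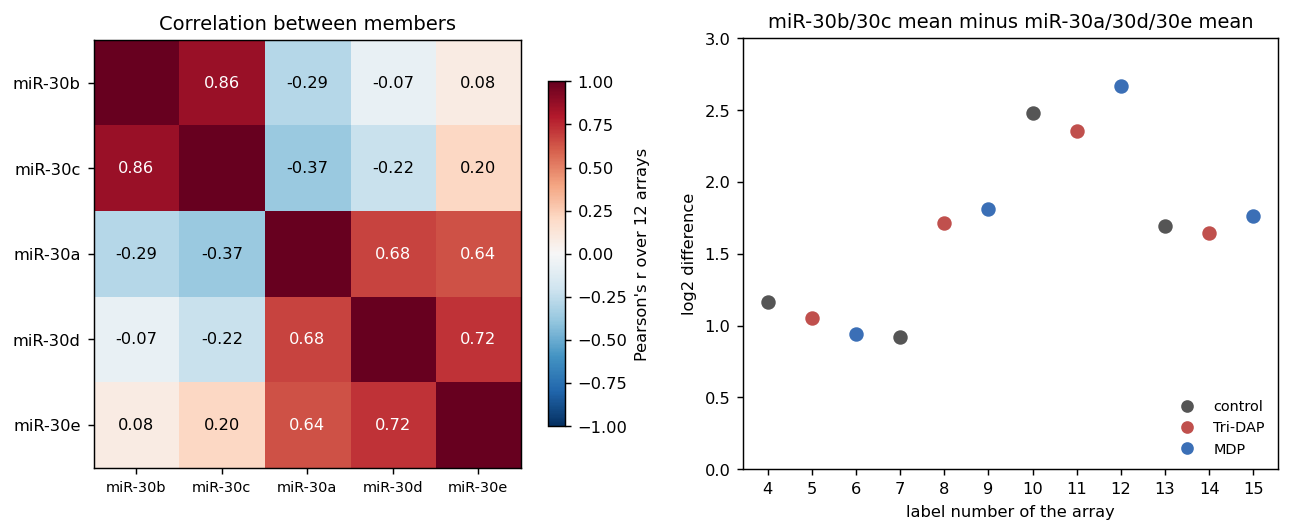
Left, Pearson's r over 12 arrays between the 5 members, on levels relative to 169 other miRNAs. Right, the log2 difference between the mean of mmu-miR-30b and mmu-miR-30c and the mean of mmu-miR-30a, mmu-miR-30d and mmu-miR-30e on each array, by label number and coloured by group. Arrays 10, 11 and 12, one of each group, lie between 2.36 and 2.67, above the other 9.

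The split between mmu-miR-30b and mmu-miR-30c on one side and the other 3 members on the other was followed array by array, as a description, since it was chosen after the correlations were seen. The mean of mmu-miR-30b and mmu-miR-30c minus the mean of the other 3 was 1.17, 0.92, 2.48 and 1.69 on control arrays 4, 7, 10 and 13. It was 1.05, 1.71, 2.36 and 1.64 on Tri-DAP arrays 5, 8, 11 and 14, and 0.94, 1.81, 2.67 and 1.76 on MDP arrays 6, 9, 12 and 15. The 3 highest values were on arrays 10, 11 and 12, one from each group, with a mean of 2.50 ± 0.16 (SD, n = 3) against 1.41 ± 0.38 on the other 9.

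By group the same quantity was 1.56 ± 0.69 on control, 1.69 ± 0.53 on Tri-DAP and 1.80 ± 0.71 on MDP arrays, so that the 3 group means lay within 1 SD of each other. On arrays 4, 5 and 6 it was between 0.94 and 1.17, and on arrays 13, 14 and 15 between 1.64 and 1.76. Arrays 7, 8 and 9 were less alike, at 0.92, 1.71 and 1.81. The labels do not say what consecutive numbers share. On arrays 10, 11 and 12 the mean of mmu-miR-30b and mmu-miR-30c was 3.46, 3.38 and 3.66, the 3 highest of the 12 arrays, while that of the other 3 members was 0.98, 1.02 and 0.99, inside its range of 0.78 to 1.88 on the other 9. Without these 3 arrays, the r of mmu-miR-30b and mmu-miR-30c was 0.51 (adjusted permutation p = 0.355), and as deviations from the means of each run of 3 consecutive label numbers it was 0.25 (adjusted permutation p = 0.546). Both of these settings were chosen after seeing the data.

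Outside the family, the 3 miRNAs whose levels over the 12 arrays were most like the mean of the 5 members were mmu-miR-195 (r = 0.89, rho 0.79), mmu-miR-126-5p (r = 0.89, rho 0.78) and mmu-miR-29c (r = 0.86, rho 0.69), the highest of 169 and given as a description. mmu-miR-126-5p comes from the Egfl7 gene of endothelial cells. Its level relative to the other miRNAs was 7.48 ± 1.25 on control, 7.53 ± 1.02 on Tri-DAP and 7.28 ± 0.85 on MDP arrays (SD, n = 4), a pattern without a group that stood apart.

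mmu-miR-384-5p, which carries the miR-30 seed under another name, was far less abundant. It was undetermined on control array 4, Tri-DAP arrays 5 and 14 and MDP array 15, and had Ct values of 34.7, 34.2 and 35.6 on control arrays 7, 10 and 13. On Tri-DAP arrays 8 and 11 the Ct was 35.4 and 37.4, and on MDP arrays 6, 9 and 12 it was 39.3, 30.9 and 35.3. MDP array 9 was thus earlier than the control range, MDP array 6 later and MDP array 12 inside it. Of the 2 Tri-DAP values 1 was inside it and 1 later. The mean log2 change relative to U6, with the undetermined arrays left out, was -1.03 ± 2.25 (SE, n = 2 and 3) after Tri-DAP and -0.27 ± 2.02 (n = 3 and 3) after MDP, with adjusted limma p values of 0.998 and 1. No assay of the other arm of a miR-30 hairpin was found on the array by name.

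Of the other miRNAs known from endothelium or inflammation, 1 was called in 1 comparison. Of 14 endothelial and flow-linked miRNAs on the array, 0 were called in any comparison (beside 1.69%, 1.23% and 2.90% of all miRNAs tested), and the median of their log2 changes (U6 scale) was -0.18 with Tri-DAP, -0.10 after MDP and 0.14 between the ligands, beside -0.24, -0.02 and 0.18 over all miRNAs. The smallest p of this list in both comparisons against control belonged to mmu-miR-19b, of the miR-17-92 cluster, at -0.54 ± 0.53 (SE) after Tri-DAP and -0.22 ± 0.53 after MDP. This list overlaps the mural cell and fibroblast markers above, since mmu-miR-143 and mmu-miR-145 stand in both. Of 12 inflammation-linked miRNAs, 1 was called lower after Tri-DAP, where 1.69% of all miRNAs tested were called, and none in the other comparisons. It was mmu-miR-147, which is known to rise after Toll-like receptor stimulation of macrophages, with a log2 change of -2.80 (SE 0.92, unadjusted p = 0.0136 and adjusted p = 0.998 from limma's test across all miRNAs). After MDP its change was -1.81 (SE 1.02, unadjusted p = 0.111 and adjusted p = 1 from the same test). Of the 12 miRNAs of this list, 11 had a value on every array of each group. Undetermined wells were left out of the fits, so a change need not rest on 4 arrays per group.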

How the data were processed

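Total RNA (350 ng) was reverse transcribed with pooled primers and run on 384-well TLDA cards for 40 cycles. The authors deposited Ct values and log2 values made as Ct minus the mean Ct of 4 U6 wells, with no replicates pooled. This was checked in 4608 wells (largest deviation 5.33e-15 cycles). The deposited table of fold changes and p-values was not used, nor were 12 unnamed columns of values. Wells at Ct 40 were taken as missing, and a miRNA needed 2 measured values per group. The sign of the log2 values was turned, and limma (3.58.1, R 4.3.3) was fitted across all miRNAs and all 12 arrays, with Benjamini-Hochberg adjustment. Calls were made where limma's p before adjustment was under 0.05. The fit was tested on simulated data. Exact permutation tests and correlations (100000 resamples) used scipy 1.17.1 and numpy 2.4.6. Groups come from the treatment labels. The number of arrays limits the precision. The members and lists were chosen with earlier results of these data known. Named were the members, assays sharing their seed, the reference RNAs, the 3 miRNAs most like the members' mean, and up to 3 miRNAs with the smallest p of each list. Alternatives covered missing wells, the reference, the filter, the fit, the test and each array left out.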

Additional observations from a re-analysis of the deposited data

Results flagged for a closer look

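Of 45 groups of 4 arrays examined (the 5 members in 3 groups on 3 scales), 2 held an array far from the other 3, and chance gives about 1 in 20, or 2.25 of 45. For mmu-miR-30b relative to U6, control array 10 was at -6.10 while the other control arrays lay between -6.64 and -6.62. For mmu-miR-30d relative to the mean of the other miRNAs, MDP array 6 was at 0.86 while the other MDP arrays lay between -0.24 and -0.11.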

How the results depend on the processing

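No member was called under any of 11 settings or with any array left out (285 values, smallest limma p before adjustment 0.232), and 238 of these values kept the direction of the reported one, so the signs of these small changes carry no call. With the mean of the other miRNAs as reference the direction turned after Tri-DAP for mmu-miR-30a (0.053), mmu-miR-30b (0.15), mmu-miR-30c (0.14) and mmu-miR-30e (0.078), after MDP for mmu-miR-30a (0.016), and between the ligands for mmu-miR-30a (-0.037), mmu-miR-30b (-0.034), mmu-miR-30c (-0.041) and mmu-miR-30e (-0.17). Without normalization it turned after Tri-DAP for mmu-miR-30b (0.03) and mmu-miR-30c (0.021) and between the ligands for mmu-miR-30e (-0.10). With U6 and snoRNA202 it turned between the ligands for mmu-miR-30e (-0.028), and with the median of the U6 wells after MDP for mmu-miR-30a (0.23) and mmu-miR-30e (0.12) and between the ligands for mmu-miR-30d (0.34). The cause was not tested. Leaving out single arrays gave log2 changes after Tri-DAP from -0.55 to 0.15 for mmu-miR-30a, -0.50 to 0.29 for mmu-miR-30b, -0.47 to 0.30 for mmu-miR-30c, -0.71 to 0.15 for mmu-miR-30d and -0.55 to 0.25 for mmu-miR-30e. Without Tri-DAP array 14, all 5 of these were above 0. After MDP the ranges were -0.35 to 0.27, -0.073 to 0.21, -0.058 to 0.17, -0.80 to 0.018 and -0.44 to 0.19 in the same order, and between the ligands -0.17 to 0.53, -0.21 to 0.58, -0.23 to 0.53, -0.49 to 0.38 and -0.38 to 0.43.

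Over the whole array, the 4 miRNAs called after Tri-DAP became 8 with undetermined wells at Ct 40, 7 without normalization and 9 with consecutive label numbers as sets, and from 1 (without Tri-DAP array 5) to 12 (without Tri-DAP array 8) with an array left out. The 3 called after MDP became 5 with the miRNA reference, with U6 and snoRNA202 or with 2 groups fitted, 6 with the U6 median or the sets, 1 with 3 measured values required or with the methods' t-test, and from 1 (without MDP array 15) to 7 (without Tri-DAP array 8) with an array left out. The 7 called between the ligands became 4 with a Ct limit of 35 or the methods' t-test, 11 with the U6 median, 3 with 3 measured values required, and 2 to 17 (without Tri-DAP arrays 14 and 8) with an array left out. The labels give each array a number of its own and state no pairs. With consecutive numbers as sets, no member was called (smallest limma p before adjustment 0.599), and 9 miRNAs were called between the ligands.

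The r of mmu-miR-30b and mmu-miR-30c was 0.77 without the 2 farthest arrays, 0.25 as deviations from the means of consecutive numbers and 0.51 without arrays 10, 11 and 12, and no longer passed. mmu-miR-30a with mmu-miR-30e (0.80) and mmu-miR-30d with mmu-miR-30e (0.84) passed without those 3 arrays (adjusted permutation p = 0.0234 and 0.0271). Pairs whose r turned sign without the 2 farthest arrays were mmu-miR-30b with mmu-miR-30d (0.17) and mmu-miR-30c with mmu-miR-30d (0.088). As deviations from the means of consecutive numbers they were mmu-miR-30a with mmu-miR-30b (0.14) and mmu-miR-30c (0.42), mmu-miR-30d with mmu-miR-30b (0.094) and mmu-miR-30c (0.25), and mmu-miR-30b with mmu-miR-30e (-0.27). Without arrays 10, 11 and 12 they were mmu-miR-30a with mmu-miR-30b (0.40) and mmu-miR-30c (0.14), and mmu-miR-30d with mmu-miR-30b (0.41) and mmu-miR-30c (0.14). The within-array differences of the 10 pairs gave 0 calls with the methods' t-test too, and with an array left out the exact test could not reach the threshold. The order of Ct cannot change with the reference.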

Other observations

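The miRNAs most like each subset of members over the 12 arrays differed between the subsets, as a description chosen after the values were seen. For the mean of mmu-miR-30b and mmu-miR-30c they were mmu-miR-335-3p (r = 0.86), mmu-miR-16 (r = 0.77) and mmu-miR-467a (r = 0.77). For the mean of mmu-miR-30a, mmu-miR-30d and mmu-miR-30e they were mmu-miR-222 (r = 0.92), mmu-miR-181c (r = 0.90) and mmu-let-7f (r = 0.86). The levels of mmu-miR-222, an endothelial miRNA, relative to the other miRNAs were 5.20 ± 0.33 on control, 5.19 ± 0.34 on Tri-DAP and 5.17 ± 0.28 on MDP arrays (SD, n = 4).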
